A study of Mus musculus with 8 samples.

Results

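The mitochondrial ribosomal protein genes, whose mouse symbols begin with Mrpl (large subunit) or Mrps (small subunit) followed by a number, were examined in bulk RNA-seq of brown adipose tissue (BAT). They were chosen by symbol alone, with pseudogenes left out, which gave 78 of the 31053 gene identifiers in the count table. All 78 are annotated as protein-coding and they lie on 17 chromosomes. Libraries came from C57BL6/J mice labelled as 8 weeks old, 4 labelled WT and 4 labelled Cd36KO. No more than Cd36KO is given in the labels as a genotype, and the study's methods give a later age at sacrifice for its Cd36-deleted mice than the labels do. The study attributes its BAT transcriptome to mice in which floxed Cd36 is deleted in myeloid cells by Csf1r-driven Cre, and it also describes mice lacking Cd36 in all cells. CD36 is a receptor for lipids and extracellular vesicles. The count column of 1 Cd36KO library has no replicate number and is called the unnumbered Cd36KO library here. The study counts the replicates of this experiment as mice, but the labels do not say that the libraries of a group came from separate animals, in which case p-values measure only the spread between these samples.

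Mitochondria carry their own ribosome, which makes only the few proteins encoded by the mitochondrial genome, all of them subunits of the respiratory chain and ATP synthase. Its RNA comes from mitochondrial DNA, whereas every one of its proteins is encoded in the nucleus, made in the cytosol and imported. Some of these proteins descend from bacterial ribosomal proteins and others are found only in mitochondria. BAT, which burns fuel to make heat, is among the tissues richest in mitochondria.

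Total counts ranged from 2679785 to 4097953 per library, and genes of the mitochondrial genome held 23.4% to 32.1% of them. Cd36 itself was lower in every Cd36KO library than in every WT library, at 1926 to 2384 against 2412 to 3505 normalized counts (counts divided by the size factor of the library), but it did not pass the DESeq2 threshold (log2 fold change -0.48, adjusted p = 0.0602). Xist was counted in all 8 libraries (772 to 1588 counts), and Uty, Kdm5d and Eif2s3y of the Y chromosome had 0 counts in every one and Ddx3y 3 counts in 1 library, whereas the study's methods state that all mice were male. The labels also name the stromal vascular fraction, but markers of mature adipocytes were abundant in every library (26744 to 48348 normalized counts in WT and 28922 to 31564 in Cd36KO, summed over 6 genes, none at 0). In DESeq2 and edgeR 0 of these 6 genes passed, 1 had a log2 fold change above 0, and the median was -0.36. Markers of other tissues and cell types were also measured. The 29 skeletal muscle markers together held 0.0688% to 4.52% of the counts outside the mitochondrial genome in WT and 0.0250% to 0.502% in Cd36KO, and the 9 white fat markers held 0.0332% to 0.229% and 0.0260% to 0.0442%, with Hoxc10 and Tcf21 at 0 throughout. The 11 macrophage markers held 0.0260% to 0.0408% in WT and 0.0296% to 0.0396% in Cd36KO, with none at 0 throughout. The 6 stromal progenitor markers held 0.0824% to 0.105% in WT and 0.0639% to 0.0776% in Cd36KO without overlap, all 6 had log2 fold changes below 0, and Dpt passed in both DESeq2 and edgeR. Over all genes tested, 2.95% passed in DESeq2, 0.143% passed in edgeR and 49.2% had a log2 fold change above 0. In such bulk samples, fewer cells of a type and less RNA per cell cannot be told apart.

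All 78 members together held 0.539%, 0.543%, 0.476% and 0.544% of the counts in WT 1 to 4. The share was 0.688% in the unnumbered Cd36KO library and 0.599%, 0.639% and 0.669% in Cd36KO 2, 3 and 4. The groups did not overlap in this share, whose means were 0.526% ± 0.0328 for WT and 0.649% ± 0.0387 for Cd36KO (SD, n = 4 each). Members of the large subunit by structure (51 of the 78) took 70.3% to 72.4% of member counts in WT and 71.5% to 73.3% in Cd36KO, ranges that overlap. Mrpl53, a protein of the large subunit, had 0 counts in all 8 libraries, which allows up to 3 counts in each, and 88.0% of its annotated exon bases are shared with Ccdc142os and Gm42688. Reads in such shared bases may be lost or assigned to either gene, and the part this plays was not tested.

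Levels of different genes were compared as CPM (counts scaled to a common library total) per kilobase of annotated exon, a scale that assumes reads along the whole transcript. On it, Mrpl34 ranked first at 839, followed by Mrpl12 at 248 and Mrps12 at 158, all 3 counterparts of bacterial ribosomal proteins. Mrpl34, a small protein of the large subunit, reached 1454, 1489, 1294 and 1352 normalized counts in WT 1 to 4 and 1877 in the unnumbered Cd36KO library, with 1575, 1912 and 1756 in Cd36KO 2 to 4. Over the 77 members with any count, Spearman's rho between this level and the mean normalized count was 0.75, a description across genes of the same libraries. At the lower end were Mrpl23 at 0.668, Mrps18b at 0.689 and Mrps28 at 2.26. Mrpl23 had 4.95 to 15.3 normalized counts per library, Mrps18b 1.11 to 13.8, and Mrps28 from 0 in the unnumbered Cd36KO library to 13.5 in WT 1, too few for an adjusted p. The 74 other detected members had one and are the members tested below.

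The comparison of Cd36KO with WT asked how the transcripts of this machinery differed between genotypes. Of the 74 members tested, 8 passed the DESeq2 threshold of an adjusted p under 0.05, all 8 higher in Cd36KO and none lower. They were Mrpl46, Mrpl19, Mrpl16, Mrpl58, Mrps23, Mrpl51, Mrpl15 and Mrpl14, with log2 fold changes from 0.51 to 1.0. Over all 9617 genes tested, 2.95% passed, and 1.42% passed upwards. The median log2 fold change of the members was 0.32, with 59 of 74 above 0, against -0.01 over all genes tested, of which 49.2% were above 0. Unadjusted p-values were under 0.05 for 33 members, each of them higher in Cd36KO, where 15.6% of all genes had such a p. The calls rested on the test. In edgeR's quasi-likelihood test no member passed, although 31 had an unadjusted p under 0.05, and 0.143% of all genes passed there. limma on the authors' log2 values also called 0 members, with 32 at an unadjusted p under 0.05, but it called 0 of all 9957 genes tested (0.0%).

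**Figure D1:**
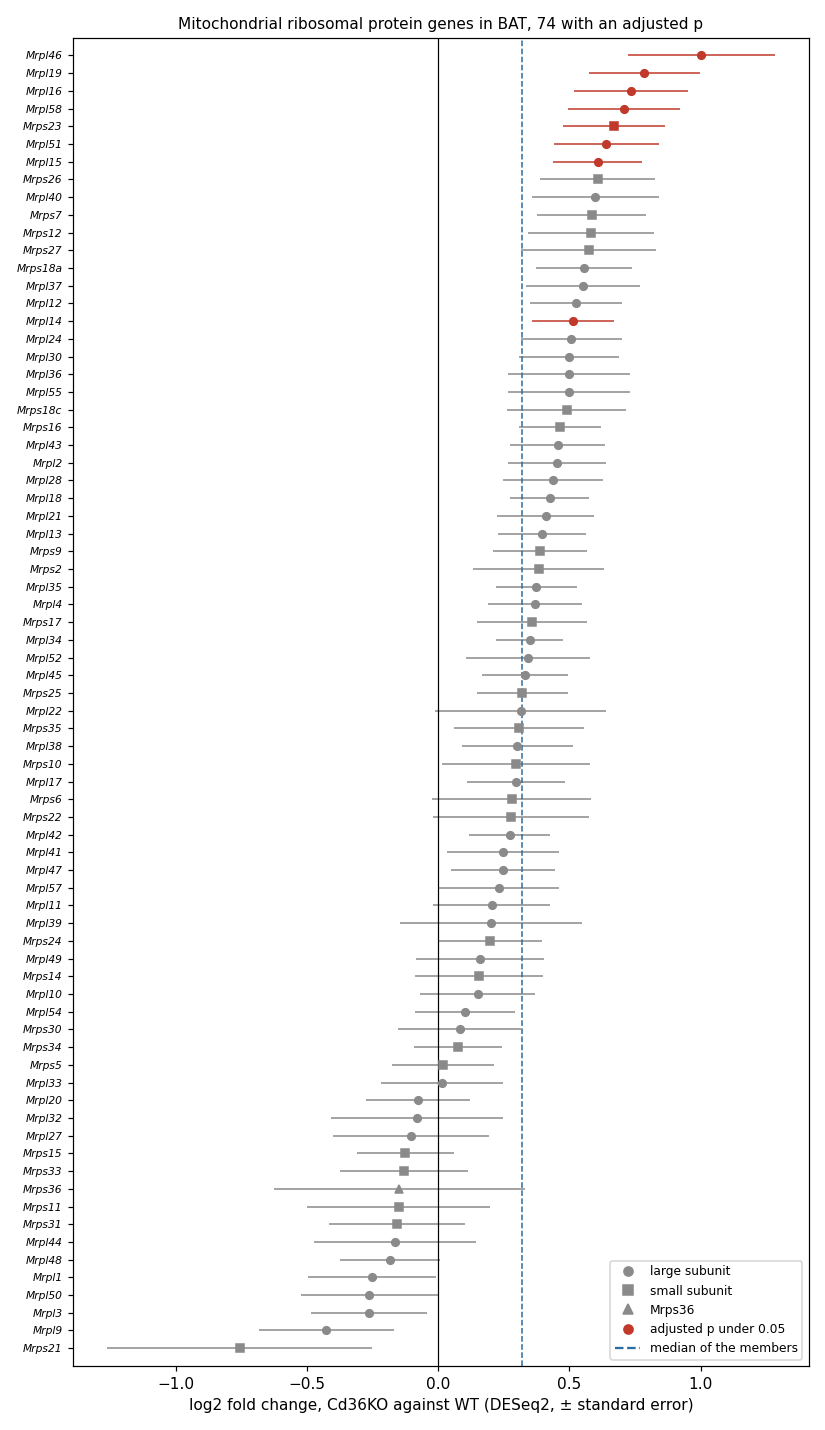
Log2 fold change of Cd36KO against WT (horizontal axis, DESeq2 estimate with standard error) for each of the 74 members tested, ordered by size. Circles are large subunit proteins, squares small subunit proteins and the triangle Mrps36. Red marks the 8 members past the threshold, 59 members lie right of 0, and the dashed line is the median of 0.32.

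The calls also rested on single libraries. The unnumbered Cd36KO library was the highest of all 8 in every one of the 8 called members, and without it 0 members passed (18 with an unadjusted p under 0.05), as without WT 2 or WT 3 (28 and 25 with an unadjusted p under 0.05). Without WT 4, 17 members passed, and without Cd36KO 2, 10. Without WT 1, Cd36KO 3 or Cd36KO 4, the counts were 3, 1 and 2. The share over all genes tested moved as well, to 8.71% without WT 4, 5.86% without Cd36KO 2, 3.36% without WT 1, and 1.11%, 1.58% and 1.19% without the unnumbered library, WT 2 and WT 3. It was 2.62% without Cd36KO 3 and 2.19% without Cd36KO 4. The direction was steadier, since the median over members tested stayed between 0.29 and 0.43 when any library was left out. From 63 to 77 members were tested in these fits, so the medians are not over the same genes. Medians over all genes tested ran from -0.02 to 0.05.

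Among the called members, the largest change was that of Mrpl46 (ENSMUSG00000030612, chromosome 7, 78775236 to 78783531, minus strand), a protein found only in mitochondrial ribosomes that sits in the central protuberance of the large subunit. Its normalized counts were 68.6, 101, 105 and 106 in WT 1 to 4, and 273 in the unnumbered Cd36KO library with 105, 189 and 194 in Cd36KO 2 to 4. Cd36KO 2 thus lay within the WT range, and the other 3 Cd36KO libraries lay above it. Its log2 fold change was 1.0 ± 0.28 (SE, DESeq2 adjusted p = 0.0232), and the exact two-sided permutation test over libraries gave p = 0.0571, where the smallest possible is 0.0286. Mrpl46 overlaps head to head with another member, Mrps11 (chromosome 7, 78783119 to 78792989, plus strand), whose annotated start lies 412 bases from its own on the other strand. Mrps11, a small subunit protein with a bacterial counterpart, averaged 29.9 ± 4.14 normalized counts over WT and 27.1 ± 8.57 over Cd36KO libraries (SD, n = 4 each) and had a log2 fold change of -0.15. Overlapping exons make up 12.2% of the exon bases of Mrpl46, and since the strand setting of the counting is not stated, reads there could belong to either gene.

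The remaining central protuberance protein that passed was Mrpl58 (ENSMUSG00000018858, chromosome 11, 115403752 to 115412674), which doubles as a peptidyl-tRNA hydrolase that frees stalled chains. Mrpl58 had 144, 171, 219 and 203 normalized counts in WT 1 to 4, against 365 in the unnumbered Cd36KO library and 235, 255 and 344 in Cd36KO 2 to 4. Every Cd36KO library was above every WT library, with the closest values at 219 and 235. Its log2 fold change was 0.71 ± 0.21 (SE, DESeq2 adjusted p = 0.0386).

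Among large subunit proteins with bacterial counterparts, 4 of 29 tested rose, where 1.42% of all genes tested passed upwards. The groups did not overlap in any of the 4, nor in the rest of the 11 members of this class that were separated upwards and the 1 separated downwards, where 4.84% and 3.93% of all genes tested were. Mrpl19 (ENSMUSG00000030045, chromosome 6, 81957851 to 81965958) had 107, 95.1, 116 and 126 normalized counts in WT 1 to 4 and 241, 150, 204 and 170 in Cd36KO (unnumbered, 2, 3, 4), and its log2 fold change was 0.78 ± 0.21 (SE, DESeq2 adjusted p = 0.0165). The gene Gcfc2 overlaps 36% of the exon bases of Mrpl19. Mrpl16 (ENSMUSG00000024683, chromosome 19, 11770391 to 11774960), which lies by the tRNA binding sites, had 209, 291, 252 and 321 in WT and 595, 325, 443 and 426 in Cd36KO, the closest values being those of WT 4 and Cd36KO 2. The log2 fold change amounted to 0.74 ± 0.22 (SE, DESeq2 adjusted p = 0.0330). Mrpl15 (ENSMUSG00000033845, chromosome 1, 4773206 to 4785739) was separated more widely, with 325, 289, 241 and 231 in WT and 455, 397, 438 and 370 in Cd36KO, all as normalized counts. Mrpl14 (ENSMUSG00000023939, chromosome 17, 45686322 to 45698495), a protein of the face that meets the small subunit, had 282, 245, 240 and 273 in WT and 426, 348, 382 and 330 in Cd36KO. The log2 fold changes of Mrpl15 and Mrpl14 were 0.61 and 0.51.

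**Figure D2:**
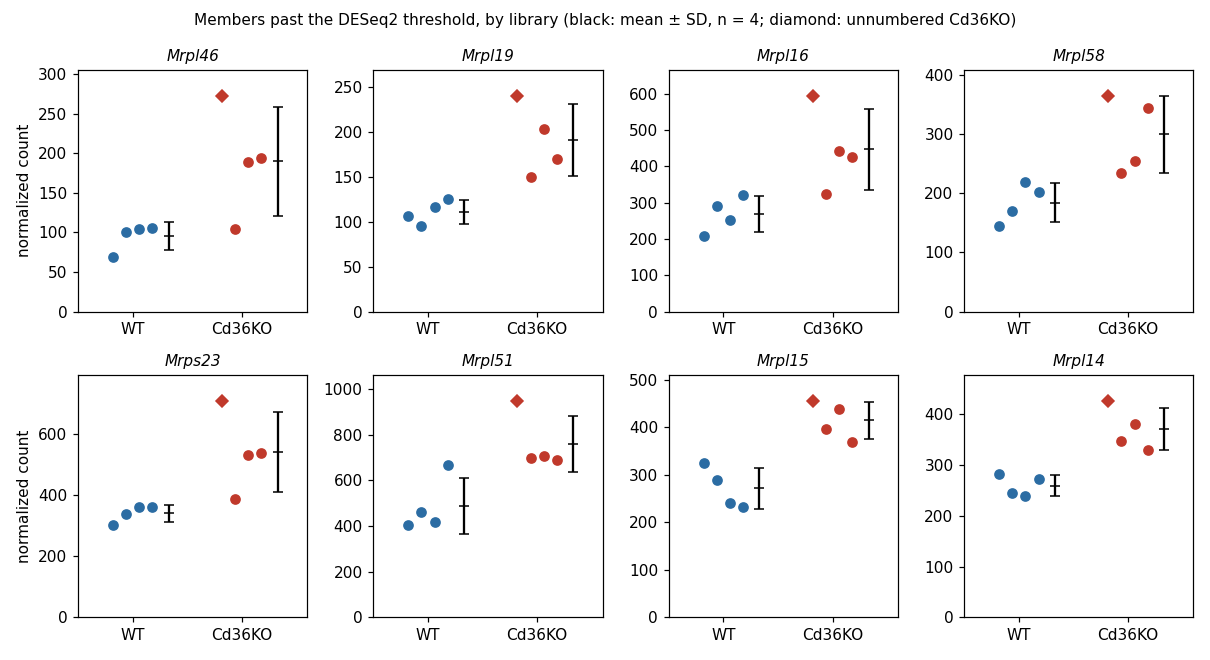
Normalized counts (vertical axes, from 0) of the 8 called members in each library, WT in blue and Cd36KO in red, with the mean and SD of 4 libraries in black. The diamond, the unnumbered Cd36KO library, is the highest point in all 8 panels, and the groups overlap only for Mrpl46.

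The last called members of the large and of the small subunit were specific to mitochondria. Mrpl51 (ENSMUSG00000030335, chromosome 6, 125191801 to 125196269) had 404, 461, 416 and 667 normalized counts in WT 1 to 4 and 946, 696, 706 and 691 in Cd36KO. WT 4 came close to the lowest Cd36KO library, and the log2 fold change came to 0.64 ± 0.20 (SE, DESeq2 adjusted p = 0.0488). Mrps23 (ENSMUSG00000023723, chromosome 11, 88204388 to 88211507) was the only called member of the small subunit. Its normalized counts of 303, 336, 360 and 359 in WT and 705, 388, 530 and 536 in Cd36KO did not overlap, and the log2 fold change was 0.67 ± 0.19 (SE, DESeq2 adjusted p = 0.0304).

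Most members of both subunits and of both origins had log2 fold changes above 0. In the large subunit 7 of 49 tested members rose, where 1.42% of all genes tested passed upwards, with a median log2 fold change of 0.34 and 40 above 0. In the small subunit 1 of 24 (Mrps23) rose, with a median of 0.30 and 19 above 0. Members with a bacterial counterpart had a median of 0.36 (4 of 44 called), and those specific to mitochondria 0.30 (4 of 29 called). A difference between these classes was not tested. Complete separation of the groups, with all 4 Cd36KO libraries above all 4 WT libraries, was seen in 21 members, where 4.84% of all genes tested showed it. The reverse was seen in 1 member, Mrpl9, where 3.93% of all genes tested showed it. Separated members all had a mean of at least 50 normalized counts. Of all genes tested at that mean, 10.9% were separated in either direction, against 8.77% of all genes tested. Without WT 4, 37 members were separated in either direction in place of 22, and the share over all genes tested was 18.6% in place of 8.77%.

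The stalk of the large subunit, which recruits the translation factors, had 0 of 4 tested members called in DESeq2 and in edgeR, with 1 at an unadjusted p under 0.05 in each tool. Mrpl12, its repeated protein, had 863, 928, 912 and 1227 normalized counts in WT 1 to 4, and 1730, 1174, 1449 and 1300 in Cd36KO, so that WT 4 lay above Cd36KO 2. The log2 fold change of Mrpl12 was 0.52 ± 0.18 (SE, DESeq2 adjusted p = 0.0745). Mrpl12 passed without WT 4 and without Cd36KO 2 (DESeq2 adjusted p = 0.00422 and 0.0357). Mrpl10, which anchors the stalk, Mrpl11 and Mrpl54 had log2 fold changes of 0.15, 0.20 and 0.10, each with overlapping groups, and Mrpl53 was not detected. Of 7 members tested at the exit of the polypeptide tunnel, 0 passed in DESeq2 and in edgeR, with 2 and 1 at an unadjusted p under 0.05 in the respective tools and a median of 0.29. The central protuberance had 2 of 8 called in DESeq2, Mrpl46 and Mrpl58, where 2.95% of all genes tested passed, and 0 in edgeR, with 5 at an unadjusted p under 0.05 in each tool and a median of 0.46.

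Several members had log2 fold changes below 0. The 6 lowest log2 fold changes among members with a mean of at least 50 normalized counts were those of Mrpl9, Mrpl3, Mrpl50, Mrpl1, Mrpl48 and Mrps31, from -0.43 to -0.16, and none passed the threshold. Mrpl9, a large subunit protein with a bacterial counterpart, had 68.6, 66.3, 55.3 and 58.4 normalized counts in WT 1 to 4 and 34.5, 47.2, 54.2 and 48.8 in Cd36KO. The groups did not overlap but were close, at 55.3 and 54.2, and the DESeq2 adjusted p was 0.435 (exact two-sided permutation p = 0.0286, the smallest possible). In the unnumbered Cd36KO library, where the called members peaked, Mrpl9 had its lowest value, as did Mrpl3 (71.3 against 85.2 to 131 elsewhere) and Mrpl50 (42.3 against 57.6 to 87.6). Some symbols with Mrps are not small subunit proteins. Mrps18a and Mrps30, which structures place in the large subunit, had log2 fold changes of 0.55 (DESeq2 adjusted p = 0.0648) and 0.08. Mrps36, now known as a component of the 2-oxoglutarate dehydrogenase complex, had from 9.41 to 22.8 normalized counts in WT libraries and 10.4 to 15.6 in Cd36KO.

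Log2 fold changes below 0 were found mostly among members with few counts. When the members tested were split into 4 groups by mean normalized count, the 19 with the fewest counts (13.5 to 106) stood apart, since 7 had a log2 fold change above 0 and the median was -0.13. In the other 3 groups, 52 of 55 were above 0, with medians of 0.39, 0.33 and 0.46. Genes of all kinds within the same 4 ranges of mean count had medians of -0.04, 0.02, 0.03 and 0.09. Over the 74 members, Spearman's rho between mean count and log2 fold change was 0.46, and it was -0.04 with exon length, both given as descriptions across genes that share the same 8 libraries. The exceptions among well-counted members were Mrpl48, Mrps15 and Mrpl20, with log2 fold changes of -0.18, -0.13 and -0.08. However, Mrpl48 was at 0.18 with a white fat score as covariate. Mrpl20 ran from -0.16 to 0.095 when single libraries were left out. Mrps15 and Mrpl20 are named here after their values were seen.

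**Figure D3:**
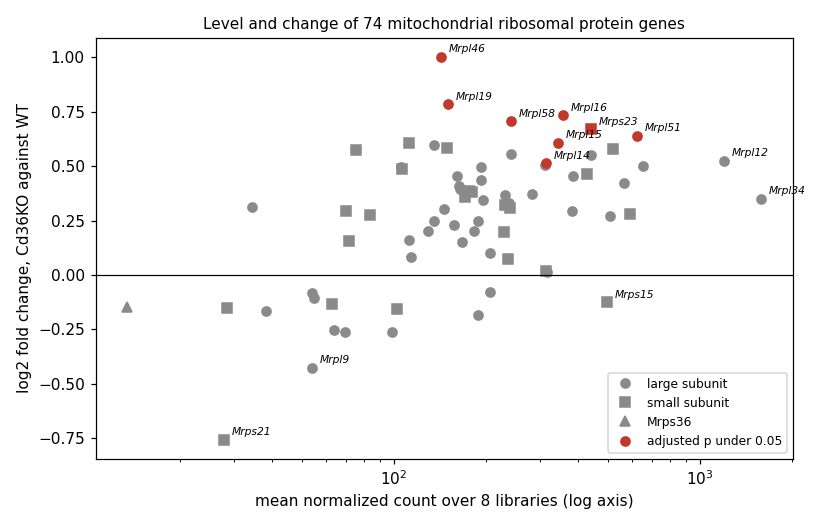
Mean normalized count over 8 libraries (horizontal log axis) against log2 fold change (vertical axis) of the 74 members tested, with circles for the large subunit, squares for the small subunit, a triangle for Mrps36 and red for the 8 called members. Below a mean of about 106 most points lie under 0, and above it 52 of 55 lie over 0.

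The level of the members was then followed library by library, as the median over the 74 members of the log2 deviation from each gene's mean over all 8 libraries. It was -0.24, -0.13, -0.26 and 0.07 in WT 1 to 4, and 0.29, 0.03, 0.13 and 0.16 in Cd36KO (unnumbered, 2, 3, 4). WT 4 lay within the Cd36KO range and above Cd36KO 2. The unnumbered Cd36KO library held the highest value of 34 of the 74 members, and WT 1 the lowest of 26. Nuclear-encoded subunits of oxidative phosphorylation (81 tested) showed medians of -0.41, -0.22, -0.33 and 0.13 in WT and 0.28, 0.06, 0.18 and 0.23 in Cd36KO, with WT 4 again inside the Cd36KO range. Of these subunits, 20 were called higher and 1 lower in DESeq2, where 2.95% of all genes tested passed, and 0 were called in edgeR (44 at an unadjusted p under 0.05), with a median log2 fold change of 0.41. The 12 tested mRNAs of the mitochondrial genome, the products that mitochondrial ribosomes translate, had 0 calls in DESeq2 and in edgeR (2 and 1 at an unadjusted p under 0.05) and a median log2 fold change of 0.24. Their median deviations were -0.07, -0.08, -0.15 and -0.23 in WT 1 to 4 and -0.07, 0.10, 0.15 and 0.09 in Cd36KO (unnumbered, 2, 3, 4), so that WT 1 and the unnumbered library were nearly level and the other Cd36KO libraries lay above all WT libraries. Proteins of the cytosolic ribosome (81 tested) had 3 called higher and 1 lower in DESeq2 and 0 called in edgeR (12 at an unadjusted p under 0.05), a median log2 fold change of 0.13, and their highest median deviation, 0.27, in WT 4.

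**Figure D4:**
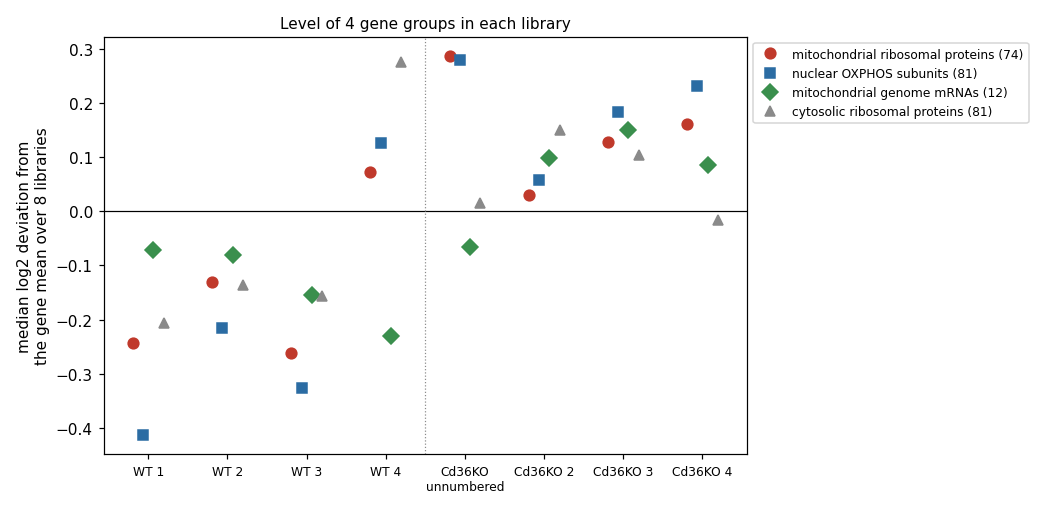
Median log2 deviation from the mean of each gene over 8 libraries (vertical axis), for the 74 members (red circles), nuclear subunits of oxidative phosphorylation (blue squares), mitochondrial genome mRNAs (green diamonds) and cytosolic ribosomal proteins (grey triangles). Members are below 0 in WT 1, 2 and 3 and above 0 in WT 4 and all Cd36KO libraries.

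Muscle and white fat markers were set beside the member changes. Beyond the values and covariates given here, the part of these markers and of the stromal progenitor markers in those changes was not tested. Of the 29 muscle markers 0 passed in DESeq2 and in edgeR, with 16 and 25 at an unadjusted p under 0.05, each with overlapping groups, and all 29 had log2 fold changes below 0, with a median of -3.02. All 6 white fat markers tested had log2 fold changes below 0, and 4 of them passed in both tools, where 2.95% of all genes passed in DESeq2 and 0.143% in edgeR. The mean log2 CPM of the muscle markers was 8.98, 6.54, 3.06 and 6.54 in WT 1 to 4 and 6.06, 1.44, 1.08 and 4.06 in Cd36KO (unnumbered, 2, 3, 4). The mean of the white fat markers was 4.00, 5.78, 5.94 and 6.30 in WT and 4.01, 3.72, 3.13 and 3.58 in Cd36KO. WT 1 lay inside the Cd36KO range, and the other WT libraries lay above it. With the muscle score as a covariate in DESeq2, 1 member (Mrpl15) passed, where 2.89% of all genes tested did, and the member median was 0.41. With the white fat score as a covariate, 13 members passed, 5 of them among the 8, where 10.1% of all genes tested passed, and the member median was 0.54, against 0.11 over all genes tested in that fit.

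The lists of other mitochondrial translation proteins held no DESeq2 or edgeR call, where 2.95% and 0.143% of all genes passed. These lists do not cover the whole apparatus, and genes outside them were not counted here. Over all genes tested, 15.6% had an unadjusted p under 0.05 in DESeq2 and 49.2% a log2 fold change above 0. Among the 5 mitochondrial ribosome proteins with other symbols, 4 log2 fold changes were above 0 and 1 unadjusted p was under 0.05 in each tool. Chchd1 and Aurkaip1, the best counted of them, had log2 fold changes of 0.48 and -0.06. Among 23 tested assembly factors, which modify the RNA and build the subunits, 17 were above 0 and 5 had an unadjusted p under 0.05 in each tool, with a median of 0.29. Of these, Lonp1, a matrix protease, had -0.01 and Mpv17l2 0.36. Among 14 tested translation factors and their partners, 11 were above 0 and 1 had an unadjusted p under 0.05 in each tool, with a median of 0.18. Lrpprc, which stabilises mitochondrial mRNAs, averaged 929 ± 521 normalized counts over WT and 1466 ± 336 over Cd36KO libraries (SD, n = 4 each), and Oxa1l, which inserts new proteins into the inner membrane, had a log2 fold change of 0.25. Transcriptional regulators of nuclear genes for mitochondria (10 tested) had 0 calls in both tools, 2 unadjusted p-values under 0.05 in each and a median of -0.08. The coactivators Ppargc1a and Ppargc1b, the best counted of them, had log2 fold changes of 0.51 and 0.25 (DESeq2 adjusted p = 0.231 and 0.684). Of 12 brown fat genes, Cidea, Ucp1, Cox7a1 and Cox8b rose in DESeq2, where 2.95% of all genes tested passed, and 0 passed in edgeR, with 8 at an unadjusted p under 0.05 in each tool.

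The neighbourhood and promoters of the members were then described. A protein-coding gene on the opposite strand started within 1000 bases of the annotated start of 33 of the 78 members (42.3%), against 17.5% of the 9433 protein-coding genes tested. Partners had like log2 fold changes in some pairs and not in others. Mrpl36, a large subunit protein, and Ndufs6, a subunit of complex I on the other strand, had log2 fold changes of 0.50 and 0.52, of which only that of Ndufs6 passed (DESeq2 adjusted p = 0.260 and 0.0125), whereas Mrpl51 and Ncapd2 had 0.64 and 0.05. These partners are named after their values were seen. RefSeq promoter windows (build GRCm38.p6, 250 bases before to 50 after the start) matched 69 of the 78 members by symbol. The letters CCGGAAG, the core that ETS family factors such as GABP bind, occurred on either strand in 34.8% of the 69 windows, against 9.14% of 27025 windows of all genes and 20.1% of the 7633 windows of genes tested. AAGATGGC, the core of YY1, occurred in 17.4%, against 2.87% and 5.20%. CGCATGCG, the palindromic core of the factor NRF1, occurred in 10.1%, against 1.92% and 4.30%. The 3 motifs share no full copy of one another, and 52.2% of member windows held at least 1 of them, against 27.3% of those of genes tested. Of the other motifs searched, the GC box GGGCGG occurred in 49.3% of member windows, against 35.9% of all and 67.3% of those of genes tested. The TATA box TATAAA occurred in 5.80%, against 14.2% and 6.76%, and AAGGTCA, an extended half-site of nuclear receptors, in 5.80%, against 4.65% and 2.99%.

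The change was then set beside the motifs for the tested members with a window, which hold 6 of the 8 called members (Mrpl15 and Mrpl19 had no window). The 22 tested members with CCGGAAG had a median log2 fold change of 0.38 and 3 calls, and the 44 without it 0.28 and 3 calls. The 12 with the YY1 core had a median of 0.44 and 0 calls, and the 54 without it 0.30 and 6 calls. The 6 with the NRF1 core had a median of 0.18 and 0 calls, and the 60 without it 0.35 and 6 calls. These differences were not tested. The 100 bases before the RefSeq start follow for 3 called members, for Mrpl3 and Mrpl9 at the low end of the changes, and for Mrpl34, the member with the highest level, 5′ to 3′ on the strand of the gene. Capitals mark CCGGAAG or CGCATGCG. The stretches are chr19:11770315-11770414 (plus strand), chr11:115403652-115403751 (plus), chr11:88204288-88204387 (plus), chr9:105053168-105053267 (plus), chr3:94443236-94443335 (plus) and chr8:71464826-71464925 (plus) on GRCm38.p6.
Mrpl16: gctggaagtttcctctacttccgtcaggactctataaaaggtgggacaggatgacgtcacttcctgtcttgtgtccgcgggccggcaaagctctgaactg
Mrpl58: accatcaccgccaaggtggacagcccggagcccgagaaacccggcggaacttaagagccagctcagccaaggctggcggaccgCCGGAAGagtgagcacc
Mrps23: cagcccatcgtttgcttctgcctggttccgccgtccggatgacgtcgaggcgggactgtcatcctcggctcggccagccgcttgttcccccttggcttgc
Mrpl3: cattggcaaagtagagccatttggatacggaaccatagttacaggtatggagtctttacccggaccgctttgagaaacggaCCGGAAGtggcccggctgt
Mrpl9: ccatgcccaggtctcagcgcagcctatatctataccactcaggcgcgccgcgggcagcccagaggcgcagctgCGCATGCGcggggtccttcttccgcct
Mrpl34: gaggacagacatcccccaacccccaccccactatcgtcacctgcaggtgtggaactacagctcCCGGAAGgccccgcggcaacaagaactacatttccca
CCGGAAG stood at bases -17 to -11 from the start in Mrpl58, which rose and in which a further copy spanned the start, and at -19 to -13 in Mrpl3, whose log2 fold change was -0.26. Mrpl16 and Mrps23, which also rose, held none of the 3 motifs in these 100 bases, although Mrps23 held CCGGAAG on the other strand at bases 16 to 22 past the start, and Mrpl9 held the NRF1 core. Of the called members with a window but not shown, Mrpl51 held CCGGAAG at bases -90 to -84. Mrpl46 and Mrpl14 held none of the 3 motifs in the 100 bases before the start. A match of letters is not evidence that a factor binds there.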

How the data were processed

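Bulk RNA-seq of BAT from mice labelled WT or Cd36KO (n = 4 each) was analysed. The study's methods state that the authors used bbduk for trimming, STAR for alignment and HTSeq-count for counts per gene of single-end reads. The submitters' processing notes list Trimmomatic, HISAT2 and DESeq2, with builds GRCm38 and mm10. The study's list of resources also names Trimmomatic and HISAT2, and its methods name DESeq2. The deposited counts are whole numbers per gene, not normalized. The strand setting and use of molecular identifiers are not given in the sources used here. The authors' second table holds log2 values, which were checked to equal log2 of 1 plus the DESeq2-scaled count, and which served an alternative test. The authors' table of sample attributes was not used.

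Symbols and coordinates (1-based) came from GENCODE M21 on GRCm38, the build of the authors, and 31011 of 31053 identifiers matched. Every pair of libraries within a group differed by more than sampling noise. Total counts of 2679785 to 4097953 limit the precision of low genes, and the limit for a count of 0 (3 counts) covers counting error only.

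Groups were compared gene by gene with the Wald test of DESeq2 1.42.0, the tool named in the study's methods (R 4.3.3, size factors by median of ratios, independent filtering on), with Benjamini-Hochberg adjustment over all genes at 0.05. Fold changes are unshrunken. Normalized counts are counts divided by the size factor. Single genes were also compared by an exact two-sided permutation test over 70 arrangements. Alternatives were edgeR 4.0.16 (quasi-likelihood), limma 3.58.1 on the log2 values, TMM factors, size factors without mitochondrial genome genes, a filter of 10 counts in 4 libraries, no independent filtering, the replicate number as a block, muscle and white fat scores as covariates, and leaving out each library. Fits were tested on simulated data.

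Members and lists were chosen with earlier results of these data known. Named members are those past the threshold, the 6 largest and 6 smallest log2 fold changes with a mean of at least 50 normalized counts, the stalk, the 3 highest and 3 lowest levels per kilobase, and Mrps18a, Mrps30 and Mrps36. Of the lists of other translation proteins and regulators the 2 best counted genes are named, and of the brown fat genes the called ones. Replicate numbers 2, 3 and 4 were shared by both groups, but same-numbered libraries did not all deviate together (correlations of -0.12, 0.39 and 0.14), so the numbers were not taken as pairs.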

Additional observations from a re-analysis of the deposited data

Results flagged for a closer look

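By Dixon's test at its 95% level, 5 of the 58 groups of 4 examined held a library that lay apart, where chance gives about 1 in 20, or 2.9. In WT 1, Mrpl46 had 68.6 normalized counts, against 101 to 106 in the other WT libraries. In the unnumbered Cd36KO library, Mrpl51 had 946 normalized counts, against 691 to 706 in the other Cd36KO libraries. In Cd36KO 4, Mrps18a had 371 normalized counts, against 252 to 264 in the others. In Cd36KO 2, Mrps18b had 13.8 normalized counts, against 1.11 to 3.07 in the others, a difference of few reads. In WT 3, the share of counts held by all members was 0.476%, against 0.539% to 0.544% in the other WT libraries.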

How the results depend on the processing

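No setting called a member lower in Cd36KO, and the member median stayed above 0 in all of them. The number of members called, all higher, was 8 in the reported fit. It was also 8 with TMM factors or size factors without mitochondrial genome genes, 6 with the filter of 10 counts and 3 without independent filtering. It was 0 in edgeR and limma, 1 with the muscle score and 13 with the white fat score. With a library left out it was 0 to 17. Over all genes tested, 2.95% passed in the reported fit, 2.83% with TMM factors and 2.96% with size factors without mitochondrial genome genes. The share was 3.06% with the filter of 10 counts and 0.985% without independent filtering. With the replicate number as a block in the 6 numbered libraries, 0 members passed (10 with an unadjusted p under 0.05) and 1.95% of all genes did, against 1 member and 2.31% when these 6 were fitted unblocked. The numbers are not known to pair the libraries. The member median moved most with the white fat score, to 0.54 (0.29 to 0.43 with a library left out), and the cause was not tested. Members without overlap between groups numbered 22, and 23 to 37 with a library left out, the highest without WT 4. Over all genes tested the share was 8.77%, and 10.4% to 18.6% with a library left out. The difference in the share of counts, 0.123 percentage points, was 0.196 when mitochondrial genome counts were left out of the total and 0.107 to 0.140 with a library left out. Cd36 passed with the muscle score (log2 fold change -0.66) and without WT 4 (range with a library left out -0.56 to -0.38). With the white fat score 1 assembly factor (Nsun4) and 1 translation factor (Lrpprc) passed. With a library left out, 0 to 2 ribosome proteins with other symbols, 0 to 1 assembly factors and 0 to 2 translation factors passed. On the sense strand only, CCGGAAG occurred in 21.7% of member windows, against 4.99% of all and 11.4% of those of genes tested. Of the 8 called members, 48 of 80 alternative values and 43 of 64 with a library left out no longer passed, and none changed sign. Signs changed for some uncalled members. With the white fat score, Mrpl48 had 0.18, Mrpl10 -0.14, Mrpl23 -0.63 and Mrps36 0.36. With the muscle score, Mrps18b had -0.85, Mrps28 0.0034 and Mrps36 0.099. In the block fit Mrps31 had 0.11 and Mrps28 0.66, and in those 6 libraries without it Mrps31 0.12, Mrpl11 -0.0038 and Mrps28 0.12. With a library left out, Mrpl23 ranged from -0.044 to 0.49, Mrps18b from -0.83 to 0.69, Mrps30 from -0.029 to 0.26 and Mrps36 from -0.29 to 0.17. Mrpl20, named after its values were seen, ranged from -0.16 to 0.095 in the same fits. Of 3 detected members the counts were too few for an adjusted p.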
